A study of Mus musculus with 36 samples.

Results

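The change from E15.5 to E16.5 in the palate of wild-type (WT, TGFβ3+/+) mouse embryos was followed in 8 of the 36 libraries of the series. They came from 2 animals at E15.5 and 2 at E16.5, and the library of each animal was run in 2 lanes. These libraries were chosen by their titles alone, which give age and genotype, so no measured value entered the choice. The series as a whole holds 18 animals, 2 for each of 3 ages, with E14.5 as the earliest, and 3 genotypes of the Tgfb3 gene (TGFβ3+/+, TGFβ3+/- and TGFβ3-/-), on a C57BL/6 background. All embryos came from matings of TGFβ3+/- parents, so the WT embryos were littermates or relatives of embryos with a constitutive deletion, and the labels name no treatment. The labels do not say whether 1 animal stands for 1 embryo or for pooled palates, nor whether the animals of an age came from separate litters. The p-values rest on the spread within groups over all 18 animals, not on that of the WT animals alone. That spread may be in part technical.

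Each library was quantified in FPKM, that is fragments of a transcript scaled by its length and by all mapped fragments of the library, and the lanes of an animal were averaged. Values are given below for replicate 1 and then replicate 2 of each age. Changes are differences between ages on the log2(FPKM + 1) scale, which understates the change of genes with low values, with their standard error (SE). A gene was said to rise or fall only at an adjusted p under 0.05 (limma, Benjamini and Hochberg) together with a change of at least 2-fold. Of 26233 annotated genes 17279 had a value in at least 1 animal, 14056 reached 1 FPKM in at least 2 animals, and 13073 of these could be compared between the WT ages. A gene that reached that level through the E16.5 animals alone was bound to be higher there. One that reached it through the E15.5 animals alone was bound to be lower at E16.5.

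FPKM values carry no read counts, and read totals of the libraries were not used here. The libraries differed in how much was assembled. The 2 libraries of E15.5 replicate 2 held 18695 and 18956 loci, the other 6 WT libraries between 21377 and 24837. The 95% intervals of loci were wider in E15.5 replicate 2, reaching a median of 17.46% and 18.49% of the FPKM to either side, against 13.4% to 14.82% in the others. A gene with no assembled locus in a library, or with a locus shared with another gene, has no value there, rather than a value of 0. E15.5 libraries were run in lanes 3 and 5 and E16.5 libraries in lanes 6 and 7, so that age and lane cannot be told apart. Mesenchymal genes of the palate were measured in every WT animal, with Twist1 at 44.3 to 74.4 FPKM and Osr2 at 15.1 to 30.1 FPKM. Genes of cartilage, nerve, bone and nasal epithelium were measured as well, though the labels name palatal shelves as the tissue.

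By these ages the palatal shelves have met and the palate separates the mouth from the nose. Its oral side is lined by stratified squamous epithelium and its nasal side by a respiratory epithelium with ciliated and secretory cells. A motile cilium beats by means of the axoneme, a ring of doublet microtubules around a central pair. Outer and inner dynein arms drive the sliding of the doublets, radial spokes and the nexin-dynein regulatory complex control it, and tektins and other inner proteins stiffen the tubules. Dynein arms are put together in the cytoplasm by assembly factors and carried along the cilium by intraflagellar transport. Multiciliated cells are made under Gemc1, multicilin, Myb, Foxj1 and the RFX factors, of which the last bind a DNA element called the X-box.

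Of 13073 genes tested, 253 rose (1.94%) and 11 fell (0.0841%) from E15.5 to E16.5 in WT. The genes that rose were mostly scarce, with a median of 1.63 FPKM at E15.5 and 6.74 FPKM at E16.5, and those that fell were more abundant, with a median of 29.4 FPKM at E15.5 and 4.83 FPKM at E16.5. Log2 changes were 1.01 to 3.95 (median 1.61) among the rises and had a size of 1.18 to 4.26 (median 1.94) among the falls. Parts of the motile cilium made up the largest group of rises that a list described, and skin, hair and embryonic globin genes made up most of the falls. Over all genes tested the median change was 0.02 and 52.4% of the changes were positive.

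The counts depended on single animals. A gene whose only value at an age came from the animal left out could not be tested in that fit. Without E15.5 replicate 1 this holds for the 53 rises and 2 falls with no value in E15.5 replicate 2. Without E15.5 replicate 1 only 86 genes rose, 65 of them among the 253, while without E15.5 replicate 2 the number was 440, with 231 of the 253 among them. Without E16.5 replicate 1 there were 253 rises, of which 200 were shared, and without E16.5 replicate 2 there were 409, of which 151 were shared. Falls numbered 21, 53, 18 and 22 in the same order, and 3, 10, 6 and 10 of the 11 were among them. When only the 4 WT animals of these ages entered the model, the spread was estimated from them alone and limma called 0 of 12756 genes, with a smallest adjusted p of 0.0743. That fit had 338 genes higher and 47 lower at an unadjusted p under 0.05 and 2-fold. In the other fits all animals in the model share the estimate of the spread.

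A value was present in all 4 animals for 194 of the 253 rises, and in all 194 both E16.5 animals lay above both E15.5 animals. Across the 11459 tested genes with 4 values this order was found in 2190 (19.1%), and the reverse order in 2436 (21.3%). Of the other rises, 55 rested on 1 animal at E15.5, in 53 cases because E15.5 replicate 2 had no value, and 9 rested on 1 animal at E16.5, with 5 genes in both sets. The rise with the highest fitted change, Sncb (a synuclein of neurons, 3.95 on the log2 scale), was of this last kind, as were Rit2, Nnat and Fbll1, which were chosen here after their values were seen. Sncb had 0.584 FPKM in E15.5 replicate 1, 23.6 FPKM in E16.5 replicate 1 and no value in the other animal of either age. As every rise and fall with 4 values had ages that did not overlap, this order adds nothing to a call where it is given below.

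The promoters of 4 genes that rose are shown first, because the X-box was the sequence feature searched for around the start sites of the whole group. They were chosen after matches and values were known. Tekt4 codes for a tektin, while Iqca, Ttc29 and Lrguk have been linked to cilia or sperm flagella. The 170 bases before the annotated start are printed 5′ to 3′ on the strand of the gene (RefSeq, GRCm38.p6), with the match to the X-box in capitals. The form searched was GTNNCC and GGNAAC with 2 free bases between them, N being any base, read on either strand. The match lies on the printed strand in Tekt4, Iqca and Lrguk and on the opposite strand in Ttc29, where the printed letters are its reverse complement.
Tekt4, chr17:25471420-25471589, plus strand: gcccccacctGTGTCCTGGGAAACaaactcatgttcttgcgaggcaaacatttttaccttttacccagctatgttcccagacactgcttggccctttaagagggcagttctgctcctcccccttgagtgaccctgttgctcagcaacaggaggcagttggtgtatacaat
Iqca, chr1:90153437-90153606, minus strand: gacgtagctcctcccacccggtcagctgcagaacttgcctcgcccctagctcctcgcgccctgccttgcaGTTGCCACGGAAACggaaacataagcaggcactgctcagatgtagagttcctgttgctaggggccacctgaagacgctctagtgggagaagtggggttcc
Ttc29, chr8:78213172-78213341, plus strand: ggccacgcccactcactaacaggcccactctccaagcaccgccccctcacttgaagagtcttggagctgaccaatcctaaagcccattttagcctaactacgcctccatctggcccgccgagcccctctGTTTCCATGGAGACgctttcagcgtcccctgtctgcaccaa
Lrguk, chr6:34029278-34029447, plus strand: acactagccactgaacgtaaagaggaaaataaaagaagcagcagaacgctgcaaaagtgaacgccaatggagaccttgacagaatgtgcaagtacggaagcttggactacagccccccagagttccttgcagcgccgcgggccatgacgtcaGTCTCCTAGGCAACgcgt

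The matches ended 146 bases before the start in Tekt4, 86 in Iqca, 27 in Ttc29 and 4 in Lrguk. In windows from 250 bases before to 50 after a start, searched on both strands, this form of the X-box was found in 23 of 252 windows (9.13%) of the 203 rising genes that have one in RefSeq. The share was 1.77% of 12977 windows of all genes tested and 1.29% of 32851 windows in the table. The 23 windows belong to 21 genes, and in 13 of these a match lay before the start. A stricter form contained in the first, with GTTNCC as its left side, was found in 5 windows (1.98%) of rising genes against 0.555% of those of genes tested and 0.451% of all. TGTTTAC, letters bound by forkhead factors, was found in 16 windows (6.35%) of rising genes, 2.57% of those of genes tested and 3.65% of all. None of the 11 windows of the genes that fell held any of the 3. Of the rising genes on the cilium lists only 20 have a window, and 1 of their 22 windows held the wider form. These matches describe letters in the windows and not binding.

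The 4 genes changed as follows. Tekt4 had 2.05 and 1.25 FPKM at E15.5 and 11.0 and 18.7 FPKM at E16.5, a change of 2.55 ± 0.27 (SE, adjusted p = 0.00343). Iqca had 0.535 and 1.21 FPKM, then 6.49 and 6.98 FPKM, a change of 2.07 ± 0.20 (adjusted p = 0.00288). For Ttc29 the values were 0.559 and 1.49 FPKM before and 6.88 and 10.6 FPKM after, a change of 2.28 ± 0.29 (adjusted p = 0.0073). Both E16.5 animals lay above both E15.5 animals in these 3 genes, and replicate 2 was the higher of the E16.5 animals. Lrguk had 0.347 FPKM in E15.5 replicate 1, no value in replicate 2, and 2.42 and 4.78 FPKM at E16.5.

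Among the 10 genes with the highest changes and 4 values that did not overlap between the ages, Tmem212 came first. It lies on chromosome 3 from 27764988 to 27795290 on the minus strand (NCBIM37) and had 2.11 and 3.64 FPKM at E15.5 and 27.4 and 50.5 FPKM at E16.5, a change of 3.33 ± 0.40 (adjusted p = 0.00643). Ccdc153, a part of the nexin-dynein regulatory complex (chromosome 9, 44048760 to 44055389, plus strand), had 3.45 and 6.53 FPKM, then 29.0 and 54.5 FPKM, with a change of 2.82 ± 0.34 (adjusted p = 0.00711). Spata18, a protein of mitochondrial quality control (chromosome 5, 74042619 to 74070723, plus strand), had 0.952 and 3.52 FPKM, then 13.04 and 25.5 FPKM. In each of these the second E16.5 animal lay well above the first. Casc1, which binds axonemal dyneins, went from 0.508 and 0.372 FPKM to 4.66 and 8.89 FPKM, a change of 2.38 ± 0.35. Riiad1 had 2.34 and 4.26 FPKM, then 15.8 and 24.8 FPKM. The other genes of this set were 4930451C15Rik (change 3.13), 1600029I14Rik (2.62), Tekt4, 4930579J09Rik (2.31) and Mmp13, a collagenase taken up with the bone genes. Casc1 and Spata18 lost the call without E15.5 replicate 1 (adjusted p = 0.0536 and 0.0756 with limma). At E14.5 most of them had no value in either WT animal, and Riiad1 had 1.23 and 0.50 FPKM.

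The lists of cilium genes were widened after values were seen, apart from 1 list of respiratory and ciliated epithelium, and so their counts are a description. Together they name 123 annotated genes, of which 99 were tested, 29 rose and none fell, beside 1.94% and 0.0841% of all genes tested. Their median change was 0.95, beside 0.02 for all genes, and 92 of the 99 changes were positive, beside 52.4% of all. The list of respiratory epithelium includes secreted proteins such as Bpifa1. Among the 82 genes with 4 values the summed level was 499.7 and 901.7 FPKM in the E15.5 animals and 1290 and 1734 FPKM in the E16.5 animals. In bulk tissue, a gain of ciliated cells and more RNA for a gene in each such cell cannot be told apart. Of the same genes 4 rose without E15.5 replicate 1, 41 without E15.5 replicate 2, 33 without E16.5 replicate 1 and 14 without E16.5 replicate 2, with median changes of 0.62, 1.11, 1.23 and 0.68.

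**Figure D1:**
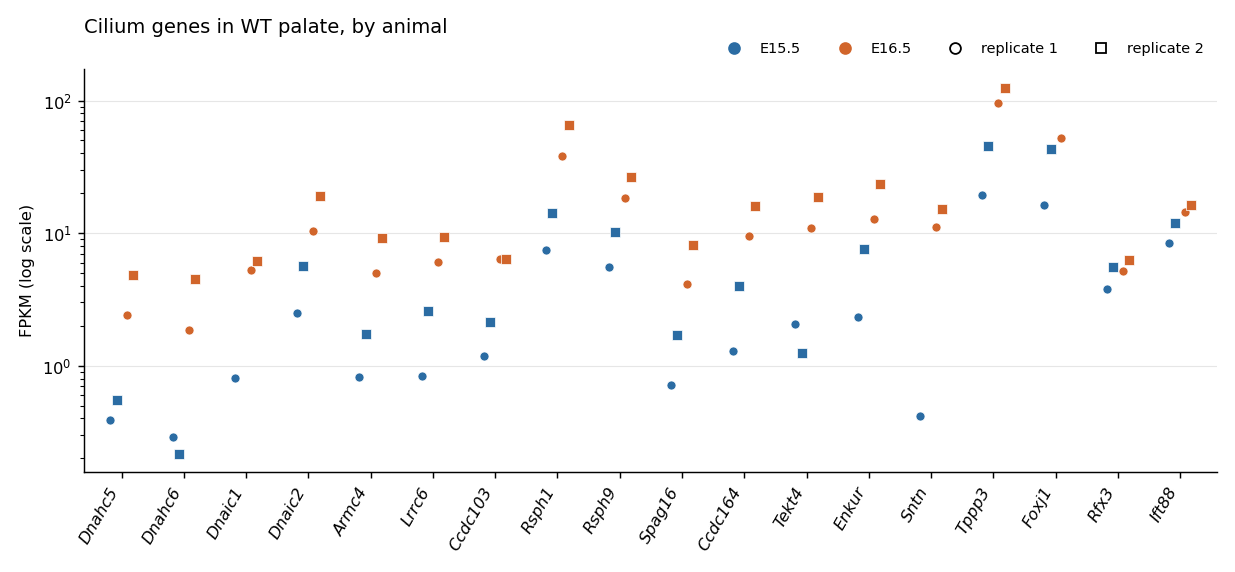
FPKM of single cilium genes in WT animals by age, on a log axis, with 1 symbol for each animal that had a value. Circles stand for replicate 1, squares for replicate 2, blue for E15.5 and orange for E16.5. In every gene drawn that rose, the E16.5 animals lie above the E15.5 animals drawn, as in all rises with a value in each animal. Dnaic1 and Sntn have a value in 1 E15.5 animal only. Tekt4 had 11.0 and 18.7 against 2.05 and 1.25 FPKM. The ages lie closer in Foxj1, Rfx3 and Ift88, which did not pass.

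Axonemal dynein arms are built of heavy, intermediate and light chains. Of 18 tested members of their list 8 rose, beside 1.94% of all genes, with all 18 changes positive (median 1.35). Their summed level was 21.3 and 38.3 FPKM at E15.5 and 62.2 and 113 FPKM at E16.5. Dnahc5, an outer arm heavy chain on chromosome 15 from 28133507 to 28401800, had 0.393 and 0.547 FPKM, then 2.41 and 4.82 FPKM, a change of 1.60 ± 0.32 (adjusted p = 0.0313). Dnahc6, a heavy chain of inner arms, had 0.288 and 0.216 FPKM, then 1.85 and 4.54 FPKM (1.67 ± 0.31). Both heavy chains were scarce at E15.5 and had no value at E14.5. The intermediate chain Dnaic2 had 2.49 and 5.66 FPKM, then 10.4 and 19.01 FPKM (1.65 ± 0.33). Dnaic1, its partner, had 0.813 FPKM in the 1 E15.5 animal with a value and 5.25 and 6.16 FPKM at E16.5 (1.88 ± 0.21). Wdr78, another intermediate chain, had 1.94 FPKM in 1 E14.5 animal, 0.0882 FPKM in the 1 E15.5 animal with a value and 8.25 and 12.9 FPKM at E16.5. The calls of Dnaic1 and Wdr78, 2 of the 8, thus rest on 1 E15.5 animal, which the model takes to vary as the other groups do, and no size is given for the change of Wdr78. Armc4, which docks outer arms, had 0.828 and 1.74 FPKM, then 5.02 and 9.26 FPKM (1.81 ± 0.30). Dnaic1 and Wdr78 had their only E15.5 value in replicate 1, the lower E15.5 animal in the summed level. They could not be tested without it. No dynein arm gene rose without E15.5 replicate 1, and 3 did without E16.5 replicate 2, against 7 and 9 without the others. Wdr78 lost its call without either E16.5 animal (adjusted p = 0.055 and 0.0608), and Dnahc5 and Dnahc6 lost theirs without E15.5 replicate 2 as well (0.055 and 0.0565).

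Of 7 tested factors for dynein arm assembly 4 rose (median 1.5), beside 1.94% of all genes. Ccdc103, which ties dynein to the doublets, had 1.19 and 2.12 FPKM, then 6.36 and 6.42 FPKM, a change of 1.5 ± 0.18 (adjusted p = 0.00288). Lrrc6 had 0.841 and 2.58 FPKM, then 6.09 and 9.39 FPKM (1.74 ± 0.32). Lrrc50 rose on a single E16.5 animal, with 0.847 and 2.43 FPKM at E15.5, 16.4 FPKM in E16.5 replicate 1 and no value in replicate 2. Radial spokes and the central pair gave 5 rises among 12 tested genes (median 1.5), beside the same 1.94%. Rsph1, of the spoke head (chromosome 17, 31391964 to 31414301, minus strand), had 7.49 and 14.3 FPKM, then 38.4 and 65.5 FPKM, a change of 2.17 ± 0.29 (adjusted p = 0.00712). Another spoke head gene, Rsph9, had 5.53 and 10.2 FPKM, then 18.4 and 26.4 FPKM (1.43 ± 0.24), and was the more abundant of the pair at E14.5, at 3.58 and 3.30 FPKM. Spag16, of the central pair, had 0.709 and 1.71 FPKM, then 4.16 and 8.16 FPKM (1.68 ± 0.27). Ropn1l, of the spoke stalk, had 1.15 FPKM in E15.5 replicate 1 and no value in replicate 2, then 6.78 and 12.4 FPKM (2.25 ± 0.30). Replicate 1 was the lower E15.5 animal in the summed level of the radial spoke list (39.6 and 67.0 FPKM). Where 4 values were present in these genes, the ages did not overlap. Ccdc103 and Rsph1 kept the call whichever animal was left out. Without E15.5 replicate 1 the call was lost in Lrrc6 (adjusted p = 0.0939), Lrrc50 (0.121), Rsph9 (0.065) and Spag16 (0.0541), and Lrrc6 lost it without E16.5 replicate 2 too (0.0662).

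Of 6 tested genes of the nexin-dynein regulatory complex and the axonemal ruler 2 rose (median 1.33). Of 12 tektins and inner microtubule proteins 6 rose (median 1.33), while the share over all genes was 1.94%. Ccdc164, the subunit that anchors the complex, had 1.29 and 4.00 FPKM, then 9.52 and 16.0 FPKM, a change of 1.98 ± 0.34 (adjusted p = 0.018). Enkur, which lies inside the doublets, had 2.33 and 7.63 FPKM, then 12.7 and 23.6 FPKM (1.78 ± 0.39). E15.5 replicate 2 was well above replicate 1 in both genes, while the E16.5 animals were higher still. Both lost the call without E15.5 replicate 1 (adjusted p = 0.0615 and 0.142), as Enkur did without E16.5 replicate 2 (0.112).

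The list of respiratory and ciliated epithelium had 8 rises among 16 tested genes, beside 1.94% of all genes, all 16 changes positive (median 1.81). The most abundant gene of the list that rose, Tppp3, a protein that bundles microtubules (chromosome 8, 107991393 to 107995322, minus strand), had 19.5 and 45.4 FPKM, then 96.4 and 125 FPKM, a change of 1.85 ± 0.41 (adjusted p = 0.0324). Sntn, which codes for sentan of the ciliary tip, had 0.414 FPKM in the 1 E15.5 animal with a value, then 11.1 and 15.2 FPKM (3.31 ± 0.31). That animal was replicate 1, the lower at E15.5 in the summed level of the list (92.8 and 309 FPKM). The size of this change is thus uncertain. Dynlrb2, a dynein light chain on no list, was chosen after its values were seen and had 21.1 and 47.1 FPKM, then 98.5 and 167 FPKM (1.99 ± 0.37). The rises on this list numbered 2 without E15.5 replicate 1 and 13, 10 and 4 without each of the other animals. Tppp3 kept its call only without E15.5 replicate 2, with adjusted p of 0.211, 0.074 and 0.0888 without E15.5 replicate 1, E16.5 replicate 1 and E16.5 replicate 2. Dynlrb2 lost its call without E15.5 replicate 1 (0.0974) and without E16.5 replicate 2 (0.0666).

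None of 15 tested regulators of multiciliated cells and centriole amplification genes passed, with a median change of 0.45, and 5 of 13 with 4 values had both E16.5 animals above both E15.5 animals, beside 19.1% of all genes. Foxj1, which switches on genes of motile cilia, had 16.2 and 43.4 FPKM at E15.5, 52.2 FPKM in E16.5 replicate 1 and no value in replicate 2 (0.94 ± 0.47, adjusted p = 0.327). Ccno, needed for centriole amplification, had 6.24 and 19.1 FPKM, then 15.6 and 31.6 FPKM (0.95 ± 0.44, adjusted p = 0.313). The ages overlapped in Ccno. Myb had 5.73 and 12.3 FPKM, then 14.9 and 20.02 FPKM, and Ccdc67, a part of the deuterosome, had 5.97 and 15.5 FPKM, then 16.6 and 31.1 FPKM. Rfx2 was at 3.39 and 3.67 FPKM, then 4.71 and 7.85 FPKM, and Rfx3 at 3.79 and 5.57 FPKM, then 5.15 and 6.23 FPKM. At E14.5 Foxj1 was at 1.01 and 2.30 FPKM and Ccdc67 at 0.248 FPKM in the 1 animal with a value. Without E15.5 replicate 2, 4 of these regulators passed. Of 22 genes of intraflagellar transport and the BBSome, which immotile cilia use as well, none passed (median 0.34), though 15 of the 22 had both E16.5 animals above both E15.5 animals, beside the same 19.1%. Among them Ift88 had 8.46 and 11.9 FPKM, then 14.4 and 16.3 FPKM. The difference between these lists and the axonemal lists was not tested.

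A list named for secretory products of the airway, also made after values were seen, had 7 rises among 19 tested genes. The share over all genes was 1.94%. All 19 changes were positive (median 1.36). Hp, or haptoglobin, which binds free haemoglobin (chromosome 8, 112099030 to 112103072, minus strand), had 1.75 and 2.69 FPKM, then 11.2 and 19.3 FPKM, a change of 2.30 ± 0.23 (adjusted p = 0.00259). Pglyrp1, which binds bacterial peptidoglycan, had 2.35 and 6.88 FPKM, then 18.7 and 24.1 FPKM (2.11 ± 0.44). Ltf, or lactotransferrin, had 0.649 and 1.46 FPKM, then 4.60 and 4.77 FPKM (1.5 ± 0.26), and is also a marker of granulocytes. Ltf rose in TGFβ3-/- and TGFβ3+/- palates too (2.03 and 1.53). The others were Lcn2 (1.41), Cp (1.69), Cyp2s1 (1.36) and Adh7 (1.04). They code for a siderophore-binding lipocalin, ceruloplasmin, a cytochrome P450 and an alcohol dehydrogenase. As Cyp2s1 and Adh7 code for enzymes inside cells, the list does not hold secreted products alone. In all 7 the ages did not overlap.

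The most abundant airway genes did not pass, and their E15.5 animals lay far apart. Bpifa1, a major secreted protein of nasal epithelium, had 23.9 and 129 FPKM at E15.5 and 283 and 260 FPKM at E16.5 (2.26 ± 0.81, adjusted p = 0.179). Reg3g, an antibacterial lectin, had 8.5 and 38.7 FPKM, then 52.8 and 76.1 FPKM (1.73 ± 0.56, adjusted p = 0.139). For both genes E15.5 replicate 1 was the lowest of the 4. The airway secretory genes that rose numbered 2, 14, 6 and 4 without E15.5 replicate 1, E15.5 replicate 2, E16.5 replicate 1 and E16.5 replicate 2. Hp and Cyp2s1 kept the call in every one of these fits, while all the others lost it without E15.5 replicate 1, and Lcn2, Adh7 and Pglyrp1 lost it without E16.5 replicate 2 as well, and Pglyrp1 also without E16.5 replicate 1.

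A locus was assembled in all 4 libraries of one age and none of the other for 90 genes at E16.5 and 8 genes at E15.5. These had no value at the other age and could not be tested. The mean was at least 1 FPKM in 65 of the 90 and in all 8. E15.5 replicate 2 held fewer assembled loci than the other WT animals, and the part of this in the 2 counts was not tested. The 90 included the airway genes Bpifb9b (mean 26.9 FPKM over the libraries), Bpifb5 (12.2), Scgb1c1 (8.88), Cxcl17 (4.66) and Sftpd (3.20). In Bpifb9b the libraries of E16.5 replicate 1 had 14.9 and 12.5 FPKM and those of replicate 2 had 40.1 and 40.1 FPKM. Ttr, transthyretin of the choroid plexus, was also among the 90 but differed between the animals, with 40.9 and 38.9 FPKM in the libraries of replicate 1 and 0.676 and 0.696 FPKM in those of replicate 2. These genes were named after their values were seen.

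The palatal bones form within the fused shelves by direct ossification of mesenchyme. Osteoclasts resorb bone with acid and proteases, and 3 of 10 tested genes of their list rose (median 0.76), beside 1.94% of all genes. Ctsk, the main collagenase of osteoclasts (chromosome 3, 95303208 to 95313284, plus strand), had 65.2 and 53.1 FPKM, then 157 and 185 FPKM, a change of 1.52 ± 0.28 (adjusted p = 0.0178). Acp5, tartrate-resistant acid phosphatase, had 21.2 and 10.1 FPKM, then 43.9 and 64.6 FPKM (1.79 ± 0.38), and Mmp9, a gelatinase, had 24.2 and 14.1 FPKM, then 42.4 and 59.2 FPKM (1.39 ± 0.30). The E16.5 animals lay above the E15.5 animals in all 3. Left out in turn, E15.5 replicates 1 and 2 and E16.5 replicates 1 and 2 left 3, 1, 3 and 1 rises on the list. Ctsk lost its call without E15.5 replicate 1 (adjusted p = 0.0536), where Atp6v0d2, a subunit of the proton pump, passed in its place, and Acp5 and Mmp9 lost theirs without E15.5 replicate 2 (0.0936 and 0.106) and without E16.5 replicate 2 (0.082 and 0.0926).

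Of 20 tested osteoblast and bone matrix genes 2 rose, Spp1 and Bglap2, beside 1.94% of all genes. On this list 15 changes were positive and 5 negative (median 0.32), beside 52.4% positive over all genes. Spp1, or osteopontin, which binds mineral and osteoclasts, had 122 and 124 FPKM at E15.5 and 389 and 378 FPKM at E16.5, a change of 1.63 ± 0.35 (adjusted p = 0.027), after 8.29 and 8.16 FPKM at E14.5. The animals of an age were close together in this gene. Even so the call did not hold when any 1 animal was left out, with adjusted p of 0.125 and 0.0569 without E15.5 replicates 1 and 2 and 0.0996 and 0.0578 without E16.5 replicates 1 and 2, the change staying at 1.61 to 1.65. On the list 0, 2, 0 and 1 genes rose in those fits. Bglap2, an osteocalcin gene, had 5.14 FPKM in 1 E15.5 animal, then 16.5 and 13.7 FPKM, but its near-identical neighbour Bglap could share its reads, so its value is uncertain. Mmp13, which cleaves collagen in mineralizing tissue (chromosome 9, 7272514 to 7283333, plus strand), had 13.5 and 8.43 FPKM, then 60.3 and 55.8 FPKM, a change of 2.33 ± 0.39 (adjusted p = 0.0186). Without E16.5 replicate 1 its adjusted p was 0.0661. It was at 0.268 FPKM in the 1 E14.5 animal with a value. The most abundant genes of the list did not pass. Col1a2, a chain of type I collagen, had 1011 and 917 FPKM, then 1660 and 1571 FPKM (0.75 ± 0.31, adjusted p = 0.245), and Sparc, or osteonectin, had 985 and 813 FPKM, then 1438 and 1683 FPKM (0.80 ± 0.25, adjusted p = 0.121). Dmp1, of osteocytes, had 7.82 and 5.78 FPKM, then 21.7 and 22.6 FPKM (1.58 ± 0.44, adjusted p = 0.0859). Their ages did not overlap either, with E16.5 the higher, an order found in 19.1% of all tested genes with 4 values.

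**Figure D2:**
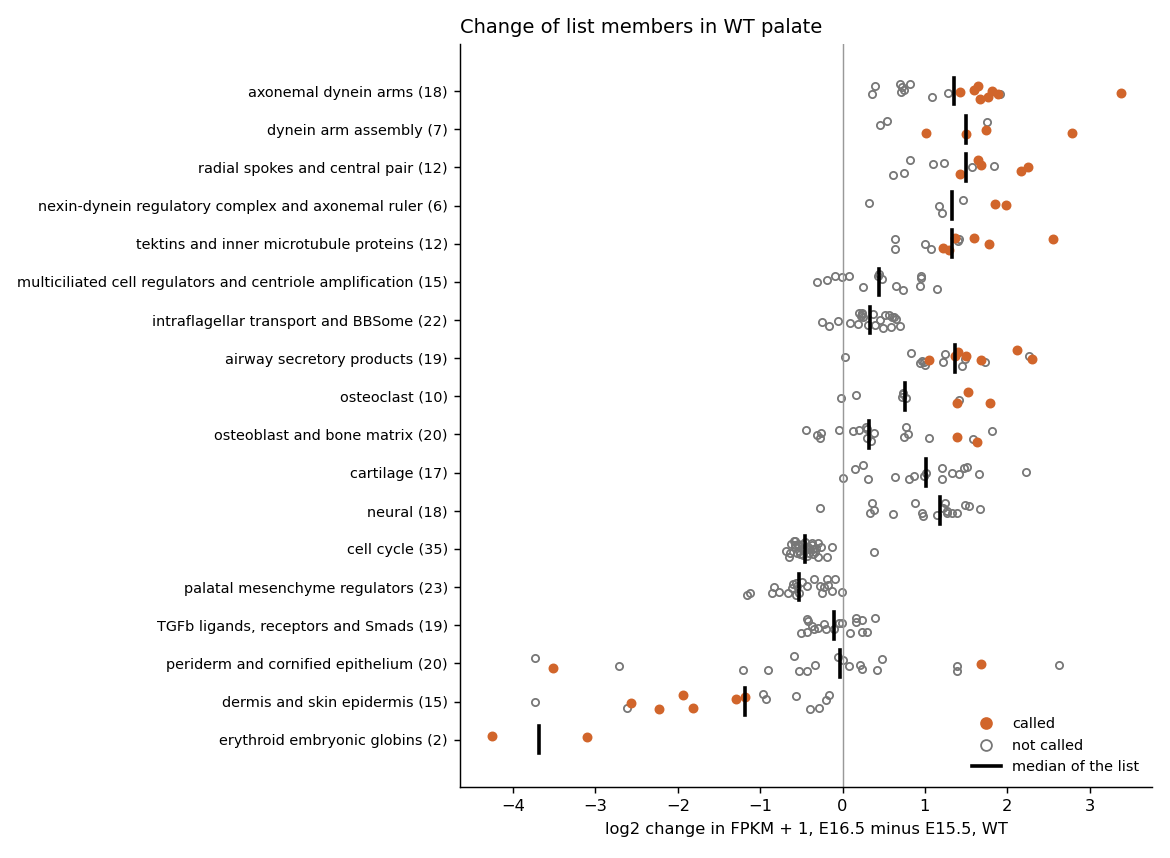
Change from E15.5 to E16.5 in WT on the log2(FPKM + 1) scale for the tested genes of gene lists, with 1 point for each gene (filled where called) and a line at the list median. The number of tested genes stands behind each name. Points of the axonemal lists lie above 0, with medians from 1.33 to 1.5, while those of the cell cycle and of palatal mesenchyme regulators lie mostly or wholly below it.

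Of the 11 genes that fell, the largest change was that of Hbb-y, an embryonic beta-like globin on chromosome 7 from 111000259 to 111001754. It had 1144 and 2362 FPKM at E14.5, 135 and 116 FPKM at E15.5 and 4.93 and 6.39 FPKM at E16.5, a change of -4.26 ± 0.50 between the last 2 ages (adjusted p = 0.00288). Hba-x, an embryonic alpha-like globin on chromosome 11 from 32176400 to 32178116, had 177 and 333 FPKM, then 37.0 and 25.6 FPKM, then 2.36 and 3.04 FPKM (-3.11 ± 0.42, adjusted p = 0.00392). Embryonic globins are made by primitive red cells of the yolk sac, which the fetal liver lineage replaces. The adult gene Hbb-b1 had 3369 and 669 FPKM, then 1407 and 1157 FPKM (-0.23 ± 0.61, adjusted p = 0.885), so that the E15.5 animals spanned both E16.5 animals.

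Most other falls were of genes of skin and hair. Krt10, a keratin of differentiating skin (chromosome 11, 99246568 to 99250678, minus strand), had 183 and 68.4 FPKM, then 8.87 and 8.83 FPKM, a change of -3.52 ± 0.82 (adjusted p = 0.0398). This call was lost without E15.5 replicate 1 (change -2.82, adjusted p = 0.226), without E16.5 replicate 1 (0.13) and without E16.5 replicate 2 (0.0782), on the first or second lanes alone (0.0513 and 0.0573), with a pseudocount of 0.1 (0.0564) and with the largest locus (0.0714). Cxcl14, a chemokine of skin, had 83.1 and 30.9 FPKM, then 5.93 and 10.01 FPKM (-2.57 ± 0.58). Twist2, a regulator of the dermis (chromosome 1, 93698038 to 93744605, plus strand), had 39.1 and 19.8 FPKM, then 6.69 and 6.34 FPKM (-1.94 ± 0.25, adjusted p = 0.00343). In each of these E15.5 replicate 1 lay well above replicate 2, and both lay above the E16.5 animals. Stfa3, a cysteine protease inhibitor, had 39.7 and 16.8 FPKM, then 4.58 and 4.95 FPKM (-2.22 ± 0.37). Egfl6, a matrix protein of dermis and hair follicle, had 62.9 and 34.2 FPKM, then 17.5 and 19.4 FPKM (-1.29 ± 0.21). Tchh, trichohyalin of the inner root sheath of hair, had 2.58 and 2.86 FPKM, then 0.748 and 0.542 FPKM (-1.18 ± 0.17). It reached the level needed for testing through these E15.5 animals alone, so it was bound to be lower at E16.5. With either of them left out Tchh could not be tested. A list of dermis and skin epidermis, made after values were seen and without Krt10, held 15 tested genes. Of these 6 fell, beside 0.0841% of all genes, and all 15 changes were negative (median -1.18). As the list was made with values known, its counts are a description and no support. Twist2 kept the call whichever animal was left out. It was lost without E15.5 replicate 1 in Cxcl14 (adjusted p = 0.219), Stfa3 (0.0615) and Egfl6 (change -0.86, under 2-fold), and without E16.5 replicate 1 in Cxcl14 (0.168) and Stfa3 (0.0543).

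Vgll3, a transcription cofactor, fell from 17.0 and 9.42 FPKM to 4.49 and 5.17 FPKM (-1.23 ± 0.25), a call lost without replicate 1 of either age (adjusted p = 0.129 and 0.0943). Glis1 and Serpinb10-ps fell on a single E15.5 animal, and were named after their values were seen. At E14.5 Krt10 had been at 2.45 and 7.40 FPKM and Tchh at 0.342 and 0.272 FPKM, so that E15.5 was their highest age in WT, while Twist2 had been at 21.1 and 16.1 FPKM. The 8 genes with a locus in all E15.5 libraries and none at E16.5 included 4 keratins of the inner root sheath, Krt71 (mean 7.40 FPKM), Krt25 (5.44), Krt27 (3.80) and Krt73 (1.98), chosen after their values were seen. Krt71 was at 8.12 and 7.98 FPKM in the libraries of replicate 1 and 6.69 and 6.83 FPKM in those of replicate 2. Without E15.5 replicate 1 there was 1 gene of the skin list that fell, and 7, 3 and 6 fell without each of the other animals. Its summed level was 420.7 and 283.1 FPKM at E15.5 and 179.8 and 196.1 FPKM at E16.5. The part that skin tissue in the E15.5 samples had in these falls was not tested.

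**Figure D3:**
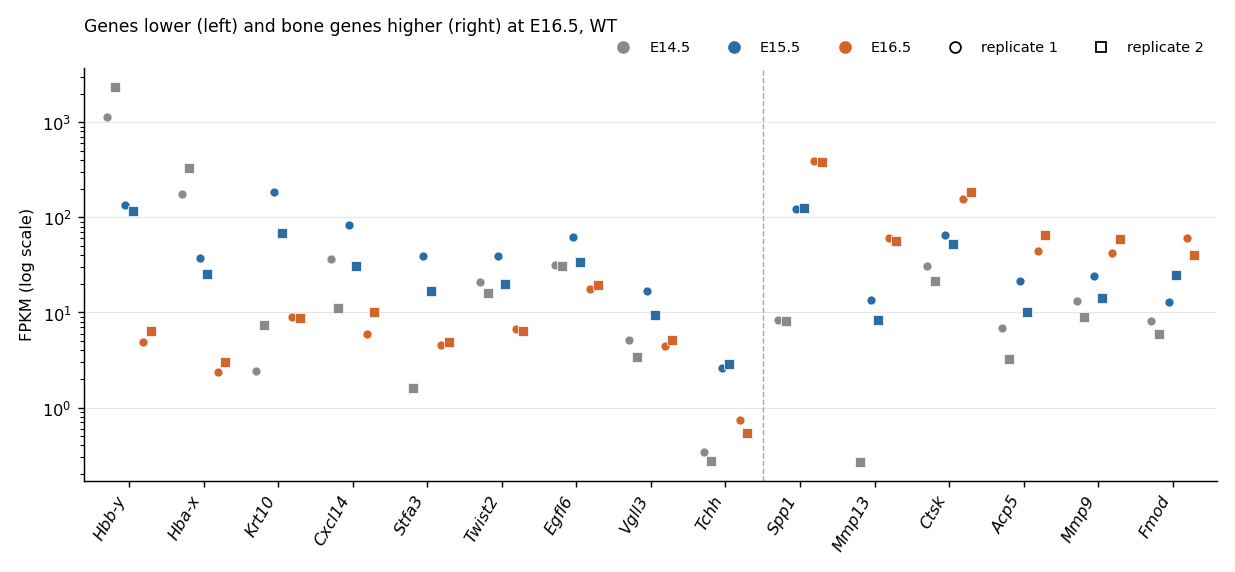
FPKM in WT animals at 3 ages for genes that fell and for bone genes, on a log axis. Each animal with a value has 1 symbol. Fmod, drawn with the bone genes, belongs to the list of fibrillar collagen and matrix. Hbb-y falls at each step to 4.93 and 6.39 FPKM, Krt10 is highest at E15.5 (183 and 68.4 FPKM), and Spp1 climbs from 8.29 and 8.16 FPKM to 389 and 378 FPKM.

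Genes of dividing cells were lower at E16.5 by less than 2-fold. None of 35 tested cell cycle genes met the fold, but 34 of the 35 changes were negative (median -0.45), and 28 of the 33 with 4 values had both E16.5 animals below both E15.5 animals, beside 21.3% of all genes. Mki67, a protein of mitotic chromosomes, had 36.8 and 32.1 FPKM, then 18.9 and 23.1 FPKM (-0.69 ± 0.15, adjusted p = 0.0267). Cenpe, a motor of the kinetochore, had 10.5 and 10.9 FPKM, then 6.38 and 7.36 FPKM (-0.58 ± 0.12, adjusted p = 0.024), and Ccna2, cyclin A2, had 47.6 and 47.0 FPKM, then 35.3 and 30.4 FPKM (-0.52 ± 0.11, adjusted p = 0.0254). These 3 passed the adjusted p alone and were chosen after their values were seen. The list median stayed between -0.52 and -0.32 when any 1 WT animal was left out.

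Regulators of palatal mesenchyme showed negative changes in all 23 genes tested (median -0.53), and none passed. Both E16.5 animals lay below both E15.5 animals in 14 of the 23, beside 21.3% of all genes. The list median was -0.32 without E15.5 replicate 1, and -0.65, -0.47 and -0.57 without E15.5 replicate 2, E16.5 replicate 1 and E16.5 replicate 2. Osr2, which shelf growth needs, had 30.1 and 25.8 FPKM, then 15.1 and 15.2 FPKM (-0.84 ± 0.23, adjusted p = 0.0765), but its change was 0.12 when the largest locus stood for the gene. Twist1, of cranial mesenchyme, had 74.4 and 63.7 FPKM, then 44.8 and 44.3 FPKM (-0.62 ± 0.19, adjusted p = 0.109). Prrx1, the most abundant gene of the list, had 99.2 and 113 FPKM, then 58.5 and 87.05 FPKM (-0.56 ± 0.28, limma, adjusted p = 0.333). Osr1 had 53.2 and 16.5 FPKM, then 14.2 and 12.2 FPKM, and Tbx15 had 30.2 and 13.9 FPKM, then 10.3 and 7.30 FPKM, so that in both the second E15.5 animal lay near the E16.5 animals. Of 265 tested genes tied to cleft palate 1 rose and none fell (median -0.11), beside 1.94% and 0.0841% of all genes, and 0, 5, 2 and 4 rose without E15.5 replicates 1 and 2 and E16.5 replicates 1 and 2. This gene was Wdr65, with 0.792 and 0.730 FPKM, then 3.41 and 5.24 FPKM (1.57 ± 0.23, adjusted p = 0.0161, and 0.0662 without E15.5 replicate 1).

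Tgfb3 itself, the gene deleted in the other genotypes, had 32.3 and 33.8 FPKM at E14.5, 30.2 and 34.3 FPKM at E15.5 and 27.6 and 35.3 FPKM at E16.5 (-0.04 ± 0.16 between the last 2 ages, adjusted p = 0.926). None of 19 tested ligands, receptors and Smads of the TGFβ pathway passed (median -0.10), nor did any of 15 targets (median -0.02). Of 8 genes that the study set apart by their pattern over ages and genotypes, 7 were tested and none passed. H19, an imprinted RNA, had 2659 and 3053 FPKM, then 2586 and 3285 FPKM. Shh, the hedgehog ligand of oral epithelium, had 5.40 and 2.01 FPKM, then 3.16 and 2.90 FPKM. Lhx8 had 28.7 and 8.31 FPKM, then 9.91 and 9.95 FPKM, Meox2 had 3.03 and 5.07 FPKM, then 5.05 and 1.76 FPKM, and Foxc2 had 1.56 and 7.39 FPKM, then 7.70 and 4.52 FPKM. The ages overlapped in all 5 of these.

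Markers of some tissues differed widely between animals of an age. Cartilage genes had positive changes in all 17 tested (median 1.01) and none passed. Their summed level was 429.5 FPKM in E15.5 replicate 1 and 2453 FPKM in replicate 2, beside 2134 and 2396 FPKM at E16.5, and Col2a1, the main collagen of cartilage, was at 111, 712, 652 and 772 FPKM. Without E15.5 replicate 1 their median change was -0.12, and without replicate 2 it was 2.21 with 8 rises. Neural genes had a median change of 1.18 with no call, and a median of 0.33 and 1.75 without E15.5 replicates 1 and 2 and of 0.30 and 2.10 without E16.5 replicates 1 and 2. Their summed level was 96.7 and 313.9 FPKM at E15.5 and 825 and 214 FPKM at E16.5. Tubb3, a tubulin of neurons, was at 31.1, 90.7, 254 and 66.2 FPKM. Genes of periderm and cornified epithelium summed to 1044 and 318.6 FPKM at E15.5 and 622.3 and 754.9 FPKM at E16.5. Within them Krt10 fell, while Krt13, a keratin of oral lining, had 110 and 10.7 FPKM, then 205 and 239 FPKM (2.63 ± 0.84, adjusted p = 0.136), and Krt16 rose on 1 E15.5 animal with 1.92 FPKM, then 7.83 and 8.96 FPKM (1.68 ± 0.29), a call lost without either E16.5 animal. E15.5 replicate 1 was thus the lowest animal in cartilage, neural and respiratory genes and the highest in cornified and skin genes. The part that these differences between animals had in the changes above was not tested.

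The same step of age in TGFβ3-/- palates, which have a cleft, gave 20 rises (0.154%) and 3 falls (0.0231%) among 12962 genes. In TGFβ3+/- palates there were 65 rises (0.506%) and 7 falls (0.0545%) among 12843 genes. Of the 253 genes that rose in WT, 248 had a change in TGFβ3-/-, 246 of them positive (median 0.82), and 12 were also called, out of the 20. In TGFβ3+/- 249 had a change, 238 of them positive (median 0.74), and 18 of the 65 calls were shared. Over all genes the median change was -0.01 in TGFβ3-/- and 0.03 in TGFβ3+/-. Of the 11 falls, 5 had a positive change in TGFβ3-/- and 9 in TGFβ3+/-, and the embryonic globins were the 2 that fell in all 3 genotypes. These genes were chosen by their WT values, so the size of their change in WT is no independent measure.

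**Figure D4:**
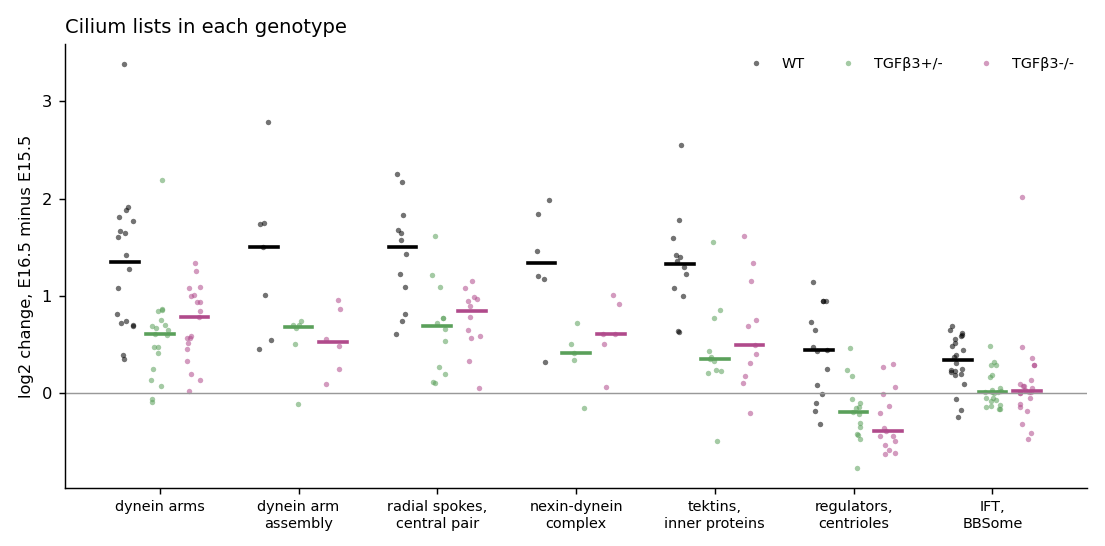
Change from E15.5 to E16.5 on the log2(FPKM + 1) scale for the tested genes of 7 cilium lists in WT (black), TGFβ3+/- (green) and TGFβ3-/- (purple), with 1 point for each gene and a line at the median. The medians of axonemal lists lie above 0 in every genotype and are highest in WT (dynein arms 1.35, 0.61 and 0.78), while regulators lie at 0.45, -0.19 and -0.39. The lists were made after values were seen, so the higher WT medians are no independent measure.

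Whether the step from E15.5 to E16.5 differed between WT and another genotype was tested gene by gene, and none passed. There were 0 of 12721 genes for WT against TGFβ3-/- (0%, smallest adjusted p 0.0603), where 830 genes (6.53%) had an unadjusted p under 0.05. There were 0 of 12588 for WT against TGFβ3+/- (0%, smallest adjusted p 0.0655), where 1594 genes (12.7%) had an unadjusted p under 0.05. Of the cilium list genes, 97 could be compared with TGFβ3-/-, 89 had the larger change in WT (median difference 0.60), and 21 had an unadjusted p under 0.05. With TGFβ3+/- these figures were 89 of 95, 0.69 and 30. The median difference over all genes was 0.06 for TGFβ3-/- and 0.00 for TGFβ3+/-. Among these genes 29 of 99 rose in WT, 0 of 98 in TGFβ3-/- and 3 of 97 in TGFβ3+/-, with median changes of 0.95, 0.42 and 0.29. All but 1 of the cilium lists were made after values were seen, so the larger change in WT is no independent measure. The test depended on E15.5 replicate 2, without which 29 genes passed against TGFβ3-/- and 305 against TGFβ3+/-, beside 3 and 5 without E15.5 replicate 1, 0 and 0 without E16.5 replicate 1, and 1 and 2 without E16.5 replicate 2. With none that passed over all animals, the rises of cilium genes are not shown to differ between genotypes.

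Tekt4 changed by 2.55 in WT, 1.62 in TGFβ3-/- (adjusted p = 0.0589) and 1.56 in TGFβ3+/- (adjusted p = 0.0456). Rsph1 changed by 2.17, 0.99 and 0.77, and Foxj1 by 0.94, -0.01 and -0.16, in the same order. Among the bone genes, Spp1 changed by 1.63, 0.69 and 2.21, and Ctsk by 1.52, 0.84 and 1.64. Hbb-y changed by -4.26, -4.45 and -3.25, and so fell in each genotype. Krt10 changed by -3.52, 0.50 and 1.80, Stfa3 by -2.22, 1.11 and 1.76, and Twist2 by -1.94, -0.20 and 0.21. The differences of Stfa3 and Twist2 from TGFβ3+/- had adjusted p of 0.0655 and 0.0778.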

How the data were processed

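RNA of palates was measured by poly(A) RNA-seq (paired-end, a kit that does not mark strand). Per the labels and the study's methods, the authors aligned reads with TopHat 1.4.1 to mm9 (NCBIM37), assembled and quantified each library alone with Cufflinks 1.3.0, and checked reads with FastQC 0.10.1. The deposited values are FPKM per assembled locus, already scaled by the authors for transcript length and mapped fragments, and each library was deposited without gene names or counts. Loci were joined by position to GENCODE genes of NCBIM37, weighted by the exonic bases covered, and a gene was left without a value where at least 50% of the exonic bases were shared with another gene's locus. FPKM was averaged over the 2 lanes of an animal. Genes at 1 FPKM or more in at least 2 of 18 animals were tested on log2(FPKM + 1) with limma 3.58.1 (R 4.3.3), all 9 groups in 1 model with a mean-variance trend, and Benjamini and Hochberg adjustment within each comparison. A call needed an adjusted p under 0.05 with 2-fold or more. Interactions of age with genotype needed the adjusted p alone. No values could be tested for genes absent from every animal of a group. FPKM gives no depth, and read totals were not used here.

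The genes and lists were chosen with earlier results of these data known, and 9 of 51 lists were added after values were seen. Of 1102 listed symbols 1062 matched the annotation directly, 34 through synonyms and 6 not. A rule picked the 10 highest rises and falls whose ages do not overlap (9 falls met this). It also picked the 2 most abundant members and the extreme calls of each of the 42 lists not added later. Tgfb3, the 8 genes of the study's unique pattern and the top differences between genotypes completed it. Not all genes so picked are described. Other genes named were chosen outside the rule with earlier results known, and only some are marked so. Among those not marked are Osr2, Osr1, Tbx15, Dmp1, Rsph1, Dnahc5, Hp, Ccno and Myb. Animals were grouped by title. The labels speak of triplicates in one place while titles show duplicates, and 3 libraries of E15.5 TGFβ3+/- carry another age in one label. Promoter windows came from RefSeq GRCm38.p6 and were matched by symbol.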

Additional observations from a re-analysis of the deposited data

How the results depend on the processing

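Counts of 253 rises and 11 falls stayed within 1.5 times under the alternatives not named here. Rises numbered 101 with a pseudocount of 5, 128 with a minimum of 5 FPKM, 134 when the largest locus stood for a gene, 414 when genes without a locus were set to 0, 469 by unadjusted p with the fold, and 0 with the 4 WT animals alone. Falls numbered 17 on the second lanes, 30 with absent genes at 0, 92 by adjusted p alone, 59 by unadjusted p with the fold and 0 with the 4 animals alone. Leaving out 1 animal gave 86 to 440 rises and 18 to 53 falls. A minimum of 5 FPKM left fewer genes to test. Otherwise the cause was not tested.

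Differences from TGFβ3-/- in the step of age were 0 by default, 1 with a pseudocount of 0.1, 1 with a minimum of 5 FPKM, 1 on the second lanes, and 0 to 29 with an animal left out. Those from TGFβ3+/- were 0 by default, 2 with a pseudocount of 0.1, 3 with one of 5, 2 and 1 under other scalings (common sum, median ratio), 8 without the variance trend, 2 on the first lanes, 33 with absent genes at 0, 7 with the largest locus, and 0 to 305 with an animal left out.

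With the replicate number as a block there were 224 rises and 12 falls, and no genotype difference passed. Numbers do not pair the animals in the labels, and their deviations correlated at -0.18 over 10338 genes. A crossed pairing, added after the data were seen, gave 243 rises, 16 falls and 3 differences from TGFβ3+/-.

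Signs turned in genes that had not passed. Osr2 changed by 0.12 with the largest locus, and Tgfb3 by 0.05 on the second lanes. With an animal left out Col2a1 ran from -0.01 to 2.67, Tgfb3 from -0.22 to 0.13 and Hbb-b1 from -1.40 to 0.93. Over a part of the genes named, 851 values kept their direction and side of the threshold, 93 lost a call, 6 gained one and 6 turned. Of the losses, 32 came with the 4 WT animals alone. This tally leaves out other calls given above, so it does not measure how stable the calls are as a whole.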

Other observations

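A few genes outside the groups above also rose. Mt1 and Mt3 are metallothioneins, which bind zinc. Mt1 had 32.3 and 55.6 FPKM at E15.5 and 92.7 and 119 FPKM at E16.5, a change of 1.29 ± 0.27 (limma, adjusted p = 0.0256). Mt3, chosen after its values were seen, had 4.77 and 7.26 FPKM, then 33.4 and 19.6 FPKM (1.95 ± 0.34). Mt2, on the same list as Mt1, had 26.9 and 44.2 FPKM, then 51.3 and 58.0 FPKM, and did not pass. Usp18, which removes the ubiquitin-like Isg15, passed as 1 of 13 tested interferon response genes, with 1.4 and 0.944 FPKM, then 4.07 and 5.45 FPKM (1.4 ± 0.19), beside a list median of 0.58. Fmod, fibromodulin, which binds collagen fibrils, passed as 1 of 22 fibrillar collagen and matrix genes, with 12.9 and 24.6 FPKM, then 60.03 and 40.0 FPKM (1.41 ± 0.29), beside a list median of -0.22. Stoml3, of olfactory neurons and cilia, passed as 1 of 9 tested olfactory genes, with 0.439 and 2.62 FPKM, then 6.70 and 9.24 FPKM (1.96 ± 0.33). Without E15.5 replicate 1 the calls of Mt1, Mt3 and Fmod were lost (adjusted p = 0.168, 0.084 and 0.157), as they were without E16.5 replicate 2 for Mt1 (0.0782) and without E16.5 replicate 1 for Mt3 (0.0588) and Fmod (0.139). In each of these genes that passed, both E16.5 animals lay above both E15.5 animals, as in every rise with a value in each animal.

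Of the 253 rises, 46 belonged to a list other than that of cleft palate genes, so most were described by no list.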
